A study of Homo sapiens with 3 samples.

Results

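Proteasome subunit genes were followed after knockdown of FOXP4 in the established human gastric cancer line NCI-N87. FOXP4 is a forkhead transcription factor. The genes were all rows of the TPM table (a read share corrected for transcript length, scaled to nearly the same total in each library) whose symbols begin with PSMA, PSMB, PSMC, PSMD, PSME, PSMF or PSMG and a digit. Pseudogenes were left out, and the mean level across the 3 libraries had to reach 1 TPM. That left 45 of the 14429 genes that reached the same mean. Of the 45, 42 encode a subunit, activator, inhibitor or assembly factor of the proteasome, and 3 match by name only. The libraries were labelled siRNA1 and siRNA2, both knockdown, and siScramble, labelled wild type; all 3 cultures were transfected with Lipofectamine 2000. The knockdown group is therefore 1 library for each of 2 reagents against a lone scrambled library. The sources used here give no transfection time, dose or culture day, so any p-value measures only the spread between these libraries.

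The proteasome degrades proteins that carry ubiquitin chains. Its core particle is a barrel of stacked alpha and beta rings, with the cutting sites on beta subunits inside; interferon-induced beta subunits can replace the constitutive ones and form the immunoproteasome used for antigen processing. A regulatory cap, with a base of ATPases and a lid, binds ubiquitin chains, removes them and unfolds the substrate into the core. Other activators and an inhibitor bind the core's ends, and dedicated chaperones help to assemble core and cap. When proteasome activity is short, the transcription factor NFE2L1 is known to activate subunit genes together through antioxidant response elements.

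FOXP4 itself had 51.6 TPM with siRNA1 and 36.7 TPM with siRNA2, against 93.9 TPM with siScramble. That is 55.0% and 39.0% of the siScramble level, so the labels and the targeted gene went the same way. All 7 epithelial markers were at 1 TPM or above, but their levels differed between libraries, with a sum of 3550.5 and 5670 TPM with siRNA1 and siRNA2 against 4753 TPM with siScramble. EPCAM stood at 101.3% and 71.6% of its siScramble level, CLDN4 at 135% and 357%, CDH1 at 141% and 278%, KRT18 at 98.2% and 178%, KRT8 at 59.1% and 111%, KRT19 at 58.1% and 120.3%, and ERBB2 at 65.6% and 71.2%. Their part in the results was not tested. None of the 7 immune markers reached 1 TPM, with CD68, CD14 and NKG7 listed at 0 in every library, and their summed level was 1.40 and 0.927 TPM against 0.417 TPM. Of 6 fibroblast and endothelial markers 1 reached 1 TPM, COL1A1. The summed level of these 6 was 7.06 and 22.8 TPM with siRNA1 and siRNA2 against 13.9 TPM with siScramble. Depth estimated from the smallest TPM steps was about 18200000, 18700000 and 18000000 reads with siRNA1, siRNA2 and siScramble. The libraries stood apart in their share of mitochondrially encoded transcripts, 10.4% with siRNA1 and 1.92% with siRNA2 against 6.37% with siScramble.

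The proteasome genes were abundant. Their median level was 104.3 TPM with siRNA1 and 75.7 TPM with siRNA2, against 97.4 TPM with siScramble; over all genes tested the medians were 19.9 and 15.9 TPM against 19.5 TPM. PSMA7, an alpha subunit of the core, was the highest by mean over the libraries, at 408 and 598 TPM with siRNA1 and siRNA2 and 680.0 TPM with siScramble. PSME1, which encodes a subunit of the interferon-inducible activator ring, came next by mean level, with 434 and 368 TPM against 499 TPM, and lay above PSMA7 in the siRNA1 library. The lowest was PSMB9, an immunoproteasome beta subunit, with 0.929 and 1.40 TPM against 1.87 TPM. Most members lay between these extremes, as the plot of levels shows, and only PSMA1, PSMB9, PSMB10, PSMG4, PSMB8-AS1 and PSMC3IP were below 10 TPM in every library.

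**Figure D1:**
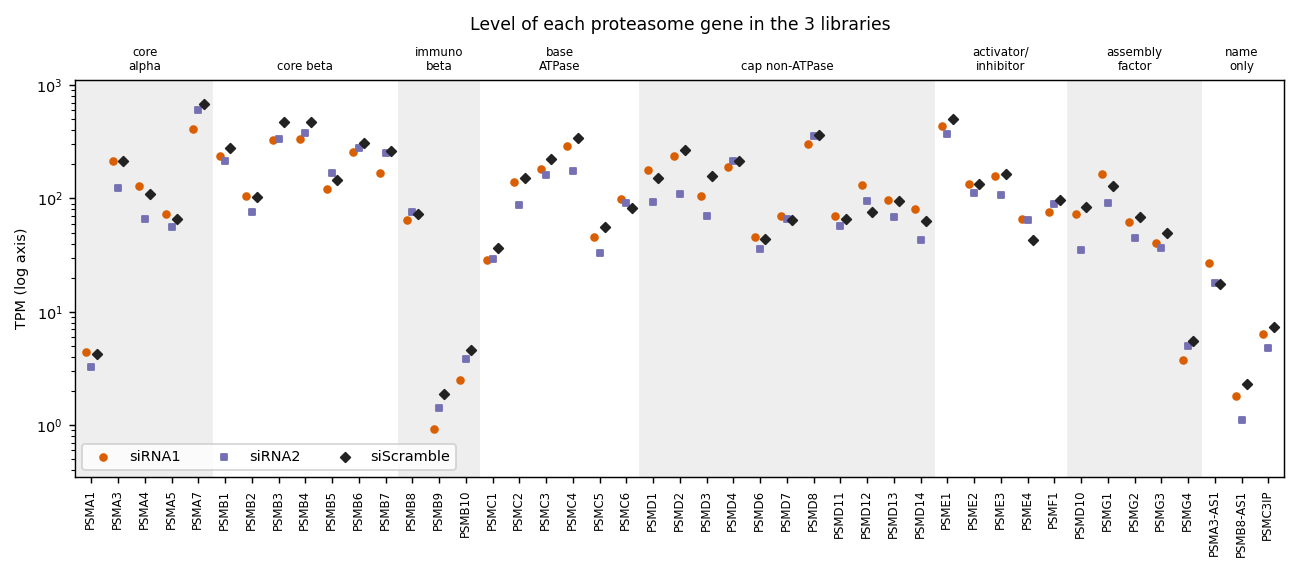
Level of each of the 45 proteasome genes, in TPM on a log axis, with 1 point per library (siRNA1, siRNA2, siScramble) and shading that separates the classes. PSMA7 is highest in siScramble at 680.0 TPM, and PSMB9 and PSMB10 of the immunoproteasome sit far below the other beta subunits, at no more than 4.59 TPM.

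Of 52 rows that match the name and are not pseudogenes, 7 fell short of 1 TPM. Just inside the limit were PSMB9, with a mean of 1.40 TPM, and PSMB8-AS1, with 1.73 TPM; just outside was PSMG3-AS1, with 0.935 TPM. Among those outside were genes of obligatory core subunits and of cap assembly factors. PSMA6, a core alpha subunit, was given 0.304 and 0.332 TPM with siRNA1 and siRNA2 against 0.261 TPM with siScramble, about 9 and 10 reads against 8. PSMA2, another alpha subunit, had 0.741 and 0.263 TPM against 0.955 TPM, and PSMD9, a chaperone of base assembly, 0.475 and 0.369 TPM against 0.799 TPM. PSMD5, a further base chaperone, and PSMD5-AS1 were listed at 0 in all 3 libraries. PSMA1, an alpha subunit at 4.42 and 3.24 TPM against 4.22 TPM, was a member but stood far below the other alpha subunits. In GENCODE 29, a same-strand transcript overlaps 24.7% of the exon bases of PSMA1, 14.1% of those of PSMA6, 14.6% of those of PSMA2 and 19.9% of those of PSMD9. PSMD5, listed at 0, has 0% of its exon bases overlapped and shares 0% of its 50-base words with other transcripts. The sources used here do not say how reads shared between genes were counted, so the levels of PSMA1, PSMA2, PSMA6, PSMD5 and PSMD9 are uncertain.

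Promoters from RefSeq (GRCh38.p14), 250 bases before to 50 after the start, were matched to 39 of the 45 members. The letters of the antioxidant response element core, TGACNNNGC on either strand, occurred in 12 of these 39 (30.8%), against 13.6% of all 27305 promoters. CCAAT, the CCAAT box, occurred in 19 (48.7%) against 35.7%, and the interferon stimulated response element, searched by its consensus on both strands, in 7 (17.9%) against 3.65%. The forkhead core GTAAACA, a search added after the values were seen, occurred in 1 member promoter, that of PSMB2 (2.56%), against 3.41% of all. The 39 include the 3 rows that match by name only. Of these, PSMA3-AS1 holds the antioxidant core and CCAAT, PSMB8-AS1 the interferon element, and PSMC3IP CCAAT. All promoters served as the comparison, with no matching for expression or base composition. A match is a description of letters and not a site. Sequences follow for the promoters of the member lowest on average with the siRNAs (PSMD3), of both members past 1.5-fold higher with an siRNA (PSMD12 and PSME4), and of PSMB10, the only one of the 3 immunoproteasome genes whose promoter held the interferon element (PSMB8 and PSMB9 had 0 matches). Capitals mark the antioxidant response element core in the first 3 and the interferon stimulated response element in the last. They are read 5′ to 3′ on the gene's strand, at chr17:39980557-39980856 (+), chr17:67366528-67366827 (-), chr2:53970944-53971243 (-) and chr16:67936801-67937100 (-).
PSMD3: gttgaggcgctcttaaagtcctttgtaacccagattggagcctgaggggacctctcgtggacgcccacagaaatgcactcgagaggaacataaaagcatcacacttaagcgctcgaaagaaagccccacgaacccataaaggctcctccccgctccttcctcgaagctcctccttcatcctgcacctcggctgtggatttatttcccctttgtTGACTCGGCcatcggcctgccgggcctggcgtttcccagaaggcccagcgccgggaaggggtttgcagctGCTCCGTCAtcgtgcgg
PSMD12: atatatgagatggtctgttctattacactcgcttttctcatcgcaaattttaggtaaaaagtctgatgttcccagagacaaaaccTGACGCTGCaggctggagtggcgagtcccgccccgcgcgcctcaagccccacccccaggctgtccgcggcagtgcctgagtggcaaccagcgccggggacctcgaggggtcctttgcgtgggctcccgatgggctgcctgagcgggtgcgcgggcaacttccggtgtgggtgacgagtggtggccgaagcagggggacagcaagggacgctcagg
PSME4: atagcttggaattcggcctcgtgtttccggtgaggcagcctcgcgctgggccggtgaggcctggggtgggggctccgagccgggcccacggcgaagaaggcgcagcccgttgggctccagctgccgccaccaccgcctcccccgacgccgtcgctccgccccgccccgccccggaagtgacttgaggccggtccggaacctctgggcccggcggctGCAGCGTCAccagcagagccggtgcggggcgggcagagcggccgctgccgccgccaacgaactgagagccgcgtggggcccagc
PSMB10: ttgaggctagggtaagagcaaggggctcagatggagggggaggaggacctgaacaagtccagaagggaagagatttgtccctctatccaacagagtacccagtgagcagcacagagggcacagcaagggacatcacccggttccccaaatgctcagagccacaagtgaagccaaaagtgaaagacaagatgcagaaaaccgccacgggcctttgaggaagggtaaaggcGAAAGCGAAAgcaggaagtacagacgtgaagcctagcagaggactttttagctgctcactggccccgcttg
PSMD3 holds a pair of matches, which begin 37 bases before and 33 bases after the start. The match of PSMD12 begins 165 bases before the start, that of PSME4 34 bases before, and that of PSMB10 21 bases before. The letters of the antioxidant core stand at PSMD3, lower with both siRNAs, and at PSMD12 and PSME4, higher with both, as described next. PSMD2 and PSMD10, also at least 2-fold lower with siRNA2, had 0 matches to that core. A relation between letters and folds was not tested.

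Across the 45 genes, values in the siRNA2 library were mostly below siScramble, and those of siRNA1 were more evenly split. Folds are log2 differences on the log2(TPM + 1) scale, which understates the change of low genes. With siRNA1, 29 members were lower than siScramble (64.4%), against 47.9% of all genes tested; with siRNA2, 38 were lower (84.4%), against 65%. Both siRNAs are set against the same scrambled library, so their folds share its error. In bulk RNA, a large difference in some cells and a small one in all cells cannot be told apart. The median log2 fold of the members was -0.18 with siRNA1 and -0.33 with siRNA2, and that of all genes tested 0.03 and -0.24. The members' median thus lay below that of all genes by 0.21 and 0.08 log2 units. With each gene's fold first averaged over the siRNAs, the median over the members was -0.29, against -0.13 for all genes. The SD of the members' pair of siRNA medians was 0.10 (n = 2). In summed TPM the members made up 5982 and 5396 with siRNA1 and siRNA2 against 6957 with siScramble, or 86.0% and 77.6% of the siScramble sum.

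Large differences were no more frequent among the members than among all genes. A fold of at least 1.5 downward was seen for 3 members with siRNA1 (6.67%, against 17% of all genes) and 12 with siRNA2 (26.7%, against 29.7%). Upward, it was seen for 2 with siRNA1 (4.44%, against 16.5%) and none with siRNA2 (against 12.8%). On the mean of the siRNAs 4 were lower by this size (8.89%, against 19.4%), namely PSMD3, PSMD2, PSMD10 and PSMC4, and 1 was higher (2.22%, against 11.9%), PSME4. At 2-fold, no member was past the limit with siRNA1 in either direction (6% of all genes lower, 5.27% higher). With siRNA2, 3 members were at least 2-fold lower (13.2% of all genes), PSMD2, PSMD10 and PSMD3, and none was higher (6.88%). The members' folds were also less dispersed than those of all genes, with an interquartile range of 0.35 and 0.47 log2 units with siRNA1 and siRNA2, against 0.82 and 0.87.

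No member passed the test. In limma's fit of both knockdown libraries against siScramble over all 14429 genes, with Benjamini-Hochberg adjustment, 0 members and 0 genes in all had an adjusted p under 0.05 (0% called). Without adjustment, 428 genes and 0 members had a p under 0.05. The smallest unadjusted member p was 0.134, for PSMD3, with an adjusted p of 0.9999. The fit has 1 residual degree of freedom, which comes from the difference between the siRNAs. The values that follow are levels and folds, not called changes.

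**Figure D2:**
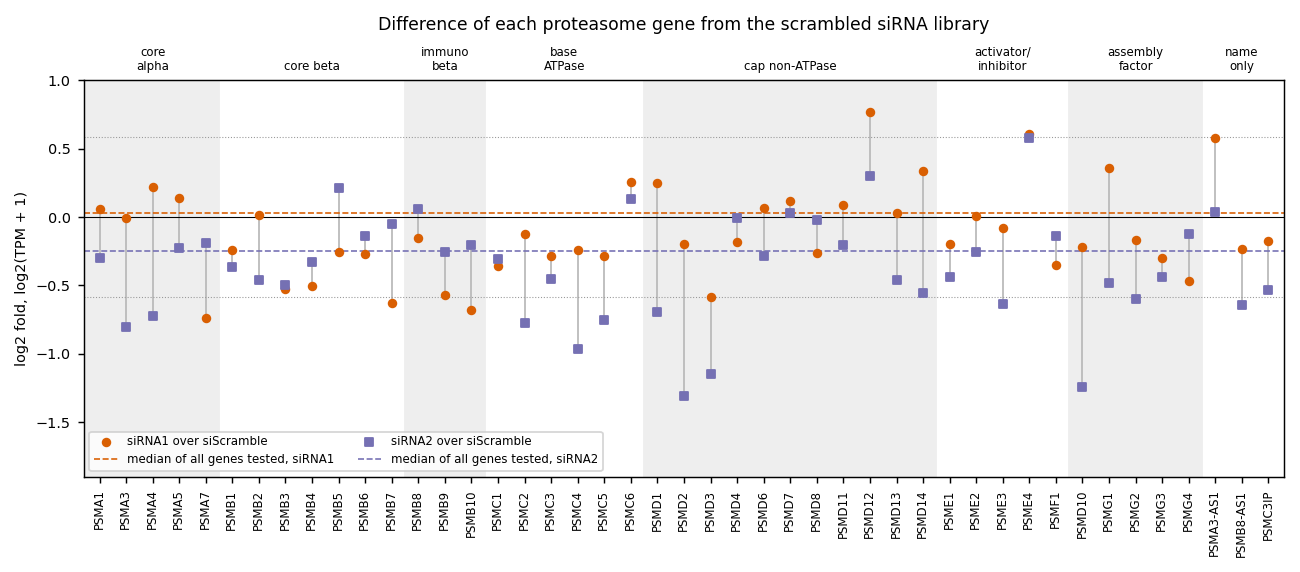
Log2 fold of each proteasome gene over siScramble on the log2(TPM + 1) scale, siRNA1 as circles and siRNA2 as squares joined by a line; dashed lines are the medians of all genes tested (0.03 and -0.24) and dotted lines mark 1.5-fold. PSMD2, PSMD3 and PSMD10 lie lowest with siRNA2, PSME4 lies above 0.5 with both, and PSMB3 has nearly equal folds.

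The alpha subunits form the outer rings of the core and its gate. Their summed level was 77.0% of the siScramble sum with siRNA1 and 78.7% with siRNA2, 828 and 846 TPM against 1075 TPM. PSMA7 was the largest term of this sum in each library, with 408 TPM in the siRNA1 library and 598 TPM in the siRNA2 library against 680.0 TPM, log2 folds of -0.73 and -0.19. PSMA3 had 214 TPM with siRNA1 and 123 TPM with siRNA2 against 215 TPM, so its siRNA1 value lay at the siScramble level (log2 fold -0.01) and its siRNA2 value below it (-0.80). PSMA4 had 129 and 66.5 TPM against 110.2 TPM, log2 folds of 0.22 and -0.72. For PSMA4 the siScramble value thus lay between the siRNA libraries as deposited. PSMA5, at 72.5 and 56.2 TPM against 65.8 TPM, had log2 folds of 0.14 and -0.22, and PSMA1 0.06 and -0.30. The median of the 5 alpha genes was 0.06 with siRNA1 and -0.30 with siRNA2. With a trend on base composition over all genes removed, it was -0.36 and -0.13. PSMA3 then had log2 folds of -0.52 and -0.71, PSMA4 -0.11 and -0.54, and PSMA5 -0.36 and -0.13. PSMA7 had -0.45 and 0.12, and PSMA1 -0.09 and -0.08.

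The constitutive beta subunits were lower in sum with both siRNAs, at 1548 and 1706 TPM against 2043 TPM, or 75.8% and 83.5%. Their median log2 fold was -0.27 with siRNA1 and -0.33 with siRNA2, and 6 of the 7 were below siScramble with each siRNA as deposited. With the trend on base composition removed, the median was -0.33 and -0.09. PSMB3, a structural beta subunit, had the closest pair of values, 327 and 334 TPM against 471 TPM (mean log2 fold -0.51 ± 0.02, SD, n = 2). PSMB4, another structural subunit, had 335 and 379 TPM against 475 TPM, log2 folds of -0.50 and -0.33. For PSMB3 and PSMB4, as for PSMB1, PSMB6 and PSMB7, both siRNA values lay below the single siScramble value as deposited. With that trend removed, the siRNA2 log2 fold was 0.17 for PSMB6, 0.20 for PSMB7 and 0.49 for PSMB5. The siRNA2 folds of PSMB1, PSMB2, PSMB3 and PSMB4, and the siRNA1 folds of all 7, were then negative. Of all genes tested, 47.9% were lower than siScramble with siRNA1 and 65% with siRNA2. Values of the 3 catalytic subunits follow. PSMB7, which has trypsin-like activity, had 169 TPM with siRNA1 and 253 TPM with siRNA2 against 262 TPM, log2 folds of -0.63 and -0.05. PSMB5, with chymotrypsin-like activity, had 121 and 168 TPM against 145 TPM (-0.26 and 0.21), so siScramble lay between the siRNAs. PSMB6, with caspase-like activity, had 255 and 280.5 TPM against 308 TPM (-0.27 and -0.14). PSMB1 and PSMB2, both structural, had 235 and 216 TPM against 278 TPM and 105 and 75.3 TPM against 104 TPM.

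The interferon-inducible beta subunits were unequal in level. PSMB8, the counterpart of PSMB5, had 65.2 and 75.7 TPM with siRNA1 and siRNA2 against 72.5 TPM with siScramble. PSMB9, the counterpart of PSMB6, had 0.929 and 1.40 TPM against 1.87 TPM; these are about 13 and 20 reads against 27. The 95% exact Poisson intervals, which cover counting error only, ran over 0.498 to 1.60 TPM and 0.865 to 2.19 TPM, against 1.24 to 2.73 TPM, and overlap. PSMB10, the counterpart of PSMB7, had 2.49 and 3.84 TPM against 4.59 TPM, about 21 and 33 reads against 40. Its intervals of 1.55 to 3.83 TPM and 2.67 to 5.44 TPM, against 3.29 to 6.28 TPM, also overlap. Both low genes thus lay below siScramble with each siRNA as deposited. Overlap of separate intervals does not decide whether a difference exceeds counting error, and the read counts were not tested against each other. With the trend on base composition removed, PSMB9 had log2 folds of -0.68 and -0.03, and PSMB10 -0.18 and 0.10.

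Set against its constitutive counterpart, PSMB8 stood at 53.9% of PSMB5 with siRNA1 and 45.1% with siRNA2, against 50.1% with siScramble. PSMB9 stood at 0.364% and 0.501% of PSMB6, against 0.606%, and PSMB10 at 1.47% and 1.52% of PSMB7, against 1.75%. On the log2(TPM + 1) scale the ratio to the counterpart differed from siScramble by -0.02 ± 0.18 for PSMB8, -0.21 ± 0.13 for PSMB9 and -0.10 ± 0.07 for PSMB10 (SD, n = 2). With a pseudocount of 5 both of these turned positive, to 0.04 for PSMB9 and 0.10 for PSMB10, and with a trend on base composition removed PSMB10 had 0.16. PSMB8, which overlaps its antisense neighbour PSMB8-AS1 over 20.6% of its exon bases, and PSMB10, of which 34.8% is shared with a same-strand transcript, are uncertain to that extent.

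The 6 ATPases of the cap base, which unfold substrates and open the core's gate, were below siScramble in 5 of 6 cases with each siRNA as deposited. Their sum was 785 and 578 TPM with siRNA1 and siRNA2 against 893 TPM, or 88.0% and 64.8%, and the median log2 fold was -0.26 and -0.60, which lay 0.29 and 0.36 below the medians of all genes. PSMC4 (chromosome 19, 39971005 to 39981441 in GRCh38, plus strand) had 291 and 176 TPM against 345 TPM, log2 folds of -0.24 and -0.96. PSMC2 had 139 and 87.8 TPM against 151 TPM (-0.12 and -0.77), and PSMC5 had 46.0 and 33.0 TPM against 56.3 TPM (-0.29 and -0.75). All 3 were below siScramble with each siRNA as deposited (PSMC4 had 0.014 with siRNA1 once a trend on base composition was removed) and at least 1.5-fold below it with siRNA2. PSMC3 had 182 and 161 TPM against 221 TPM, and PSMC1 28.4 and 29.4 TPM against 36.6 TPM. PSMC6 alone among the 6 was above siScramble with both siRNAs as deposited, at 99.1 and 90.7 TPM against 82.9 TPM (0.26 and 0.13). With the trend on base composition removed, PSMC6 had -0.20 and 0.25 with siRNA1 and siRNA2, and PSMC3 had 0.03 and -0.14. The PSMC1 value is uncertain, since 75.8% of its exon bases overlap the opposite-strand gene NRDE2 and 84.9% of its 50-base words occur in other transcripts.

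The 11 non-ATPase genes of the cap held the lowest fold with siRNA2 (PSMD2) and the highest with siRNA1 (PSMD12). Their sum was 1505 and 1208 TPM with siRNA1 and siRNA2 against 1564 TPM, or 96.3% and 77.2%, with a median log2 fold of 0.07 and -0.28. PSMD2 (chromosome 3, 184298709 to 184309054, plus strand), a large scaffold of the base, had 236 TPM with siRNA1 and 108 TPM with siRNA2 against 269.7 TPM. Its log2 folds were -0.19 and -1.31, the lowest of any member with siRNA2. PSMD3 (chromosome 17, 39980797 to 39997960, plus strand), a lid subunit, had 104 and 70.3 TPM against 157 TPM, log2 folds of -0.58 and -1.15. Its mean of -0.86 ± 0.40 (SD, n = 2) was the lowest of the members. The base's other large scaffold, PSMD1, had 179 and 92.9 TPM against 151 TPM (0.25 and -0.69), so siScramble lay between the siRNAs. PSMD14, the lid enzyme that cuts off ubiquitin chains, had the same pattern as deposited, at 81.2 and 43.1 TPM against 63.9 TPM (0.34 and -0.56). With the trend on base composition removed, PSMD14 had -0.26 and -0.52, both below siScramble, and PSMD1 had 0.014 and -0.49.

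PSMD12 (chromosome 17, 67337916 to 67366627, minus strand), a lid subunit, had the highest fold with siRNA1. It had 131 TPM with siRNA1 and 94.8 TPM with siRNA2 against 76.7 TPM, log2 folds of 0.77 and 0.30. PSMD7, the partner of PSMD14 in the lid, had 70.3 and 66.2 TPM against 64.9 TPM (0.11 and 0.03). Its mean log2 fold was 0.07, and its log2 difference of siRNA2 over siRNA1 was -0.09. PSMD4, a ubiquitin receptor of the cap, had 188 and 213 TPM against 213 TPM. PSMD8, PSMD11, PSMD13 and PSMD6, all lid subunits, had log2 folds between -0.26 and 0.09 with siRNA1 and between -0.46 and -0.02 with siRNA2.

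Among activators, PSME4 stood apart. PSME4 (chromosome 2, 53864067 to 53970840, minus strand), which encodes a large single-chain activator of the core, had 65.8 and 64.5 TPM with siRNA1 and siRNA2 against 42.8 TPM with siScramble. Its log2 folds were 0.61 and 0.58, a mean of 0.60 ± 0.02 (SD, n = 2) and the highest mean of the members. Both subunits of the interferon-inducible ring were at or below siScramble: PSME1 had log2 folds of -0.20 and -0.44, and PSME2, at 135 and 112 TPM against 134 TPM, 0.01 and -0.26. PSME3, the nuclear activator, had 157 and 107 TPM against 166 TPM (-0.08 and -0.63). PSMF1, the inhibitor, had 76.3 and 88.6 TPM against 97.4 TPM (-0.35 and -0.14). The class median was -0.08 with siRNA1 and -0.26 with siRNA2.

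Of the 5 assembly factors, 4 were below siScramble with siRNA1 and all 5 with siRNA2 as deposited. Their sum was 343 and 213 TPM against 337 TPM, or 101.8% and 63.3%; PSMG1, above siScramble with siRNA1, was its largest term there. PSMD10 (chromosome X, 108084207 to 108091618, minus strand), also called gankyrin, is a chaperone of the base. It had 72.3 TPM with siRNA1 and 35.0 TPM with siRNA2 against 84.1 TPM, log2 folds of -0.22 and -1.24. PSMG1 and PSMG2 form a chaperone pair for the alpha ring. PSMG1 had 166 and 91.7 TPM against 129 TPM (0.36 and -0.48), and PSMG2 had 61.5 and 45.2 TPM against 69.1 TPM (-0.16 and -0.60), so only PSMG2 lay below siScramble with both. PSMG3 and PSMG4, a second pair, had 40.2 and 36.4 TPM against 49.7 TPM and 3.75 and 5.03 TPM against 5.57 TPM. The median log2 fold of the class was -0.22 with siRNA1 and -0.48 with siRNA2, each 0.24 below the median of all genes in the same comparison. With the trend on base composition removed, the class median relative to all genes was -0.035 with siRNA1 and -0.25 with siRNA2. PSMG3 then had 0.13 with siRNA1, and PSMG4 had 0.16 with siRNA2.

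The 3 rows that match by name only were PSMA3-AS1, PSMB8-AS1 and PSMC3IP. PSMA3-AS1, an antisense transcript, had 26.7 and 18.1 TPM with siRNA1 and siRNA2 against 17.6 TPM (0.58 and 0.04). PSMB8-AS1 had 1.80 and 1.11 TPM against 2.29 TPM (-0.23 and -0.64); 56.8% of its exon bases overlap other genes, PSMB8 among them, so its reads cannot be told apart from theirs without strand. PSMC3IP encodes a cofactor of meiotic recombination and had 6.40 and 4.78 TPM against 7.35 TPM (-0.17 and -0.53). Leaving out these rows and PSMA1, a choice made after the values were seen, moved the summed share to 85.8% and 77.5%.

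The siRNA libraries differed from each other as well as from siScramble. With siRNA2 set over siRNA1, the median log2 difference was -0.29 over the members and -0.25 over all genes tested. A difference of at least 1.5-fold downward was seen for 9 members, or 20% (30.5% of all genes), and upward for 0 members (12.9%). The 9 were PSMD2, PSMD10, PSMA4, PSMD1, PSMD14, PSMG1, PSMA3, PSMC4 and PSMC2, of the alpha ring, the cap and the assembly factors. PSMD2 had the largest difference, -1.11, followed by PSMD10 with -1.03. None of the 7 constitutive or 3 inducible beta subunits was among the 9, and the median over the constitutive beta genes was 0.13.

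Folds with siRNA1 went with base composition. The median GC content of the longest transcript was 48.7% over the members and 48.2% over all genes. Spearman's rho between GC content and the siRNA1 log2 fold was -0.67 across the 45 members and -0.61 across 12317 genes; these are points within the same pair of libraries and not replicates. For siRNA2 it was 0.01 across the members and -0.10 across all genes. PSMD12, with 37.9% GC, had a siRNA1 log2 fold of 0.77, and 0.29 once the trend over all genes had been removed; with siRNA2 it had 0.30 and then 0.41. PSME4 had 0.26 with siRNA1 and 0.75 with siRNA2 after removal. PSMD3, with 52.7% GC, had -0.43 and -0.86, and PSMD2 had 0.03 and -1.005, so the siRNA1 fold of PSMD2 did not keep its sign. In all, 13 of the 45 siRNA1 folds and 10 of the siRNA2 folds changed sign on removal. The mean fold was -0.32 after removal, against -0.60 before, for PSMC4. For PSMB3 it was -0.27 after and -0.51 before, and for PSMA7 -0.17 after and -0.46 before. PSMD10 had -0.57 and -1.07. FOXP4 had -0.20 and -1.02, so its own lower level with siRNA1 was also smaller after removal. The part of base composition in these folds was not tested.

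**Figure D3:**
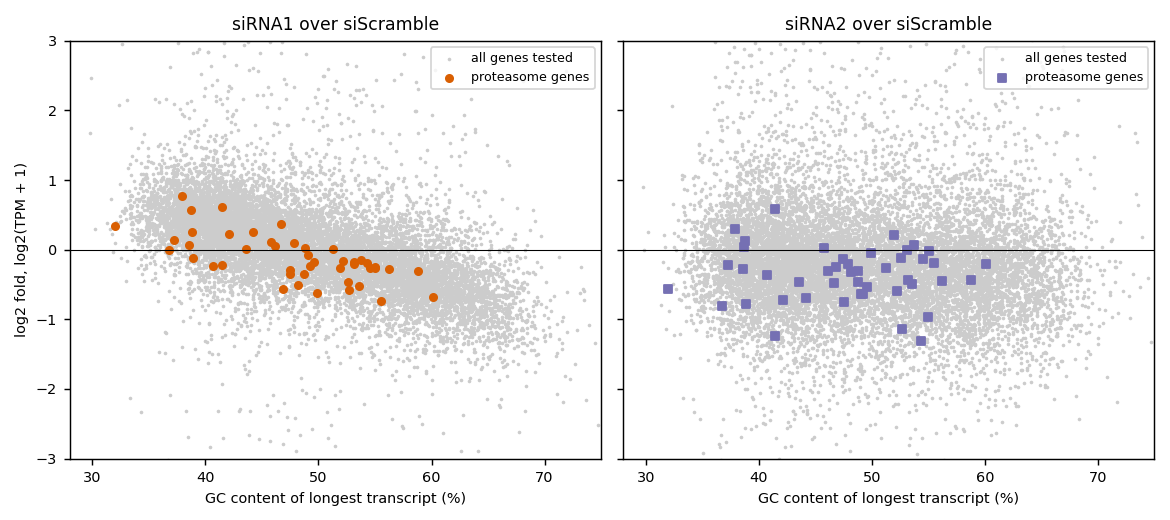
Log2 fold over siScramble against the GC content of the longest transcript (%), siRNA1 on the left and siRNA2 on the right; grey points are all genes tested and coloured points the proteasome genes, with the axis ending at 3 log2 units. Members follow the downward slope of all genes with siRNA1 (rho -0.67) and show none with siRNA2 (rho 0.01).

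Genes that work with the proteasome were taken from a list of 27, all at 1 TPM or above. Their median log2 fold was -0.083 with siRNA1 and 0.027 with siRNA2. At 1.5-fold, 1 was lower and 7 were higher with siRNA1, and 4 were lower and 4 higher with siRNA2. Of all genes, 17% were lower and 16.5% higher by this size with siRNA1, and 29.7% lower and 12.8% higher with siRNA2. In limma's fit 0 of the 27 were called, and 0 had an unadjusted p under 0.05. UBB, which encodes ubiquitin repeats, had the highest mean fold. It had 55.9 and 203 TPM with siRNA1 and siRNA2 against 37.3 TPM with siScramble (0.57 and 2.41). ZFAND5, a proteasome-binding zinc finger protein, had 154 and 216 TPM against 85.6 TPM (0.84 and 1.32). UBA6, a ubiquitin-activating enzyme, had 78.4 and 85.6 TPM against 45.9 TPM (0.76 and 0.89). USP14, a ubiquitin-cleaving enzyme that binds the cap, had 177 and 166 TPM against 114 TPM (0.63 and 0.53). These 4 were named for their high mean folds, and both siRNA libraries lay above siScramble in each. With the trend on base composition removed, the log2 folds were 0.67 and 2.68 for UBB, 0.42 and 1.46 for ZFAND5, 0.23 and 0.97 for UBA6, and 0.15 and 0.64 for USP14.

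At the low end was VCP, the ATPase that extracts ubiquitylated proteins from complexes and membranes, with 217 and 164 TPM against 388 TPM (-0.83 and -1.24). PAAF1, a base chaperone, had 10.2 and 3.51 TPM against 11.7 TPM (-0.18 and -1.50). UBQLN4, a ubiquitin shuttle, had 83.8 and 43.0 TPM against 90.9 TPM (-0.12 and -1.06). POMP, the maturation factor of the core, had 310.4 and 206 TPM against 378 TPM (-0.29 and -0.87). With the trend on base composition removed, VCP had -0.71 and -0.96, PAAF1 -0.35 and -1.28, UBQLN4 0.19 and -0.75, and POMP -0.84 and -0.81. SEM1, a small lid subunit listed as SHFM1, had 9.32 and 8.45 TPM against 12.9 TPM. ADRM1, a ubiquitin receptor of the cap, had 57.3 TPM with siRNA1 and 113 TPM with siRNA2 against 71.3 TPM (-0.31 and 0.66). NFE2L1, the activator of subunit genes named above, had 163 and 292 TPM against 202 TPM (-0.31 and 0.53). For ADRM1 and NFE2L1, siScramble lay between the siRNAs as deposited. After removal of the same trend ADRM1 had 0.42 and 0.98, and NFE2L1 -0.05 and 0.83.

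**Figure D4:**
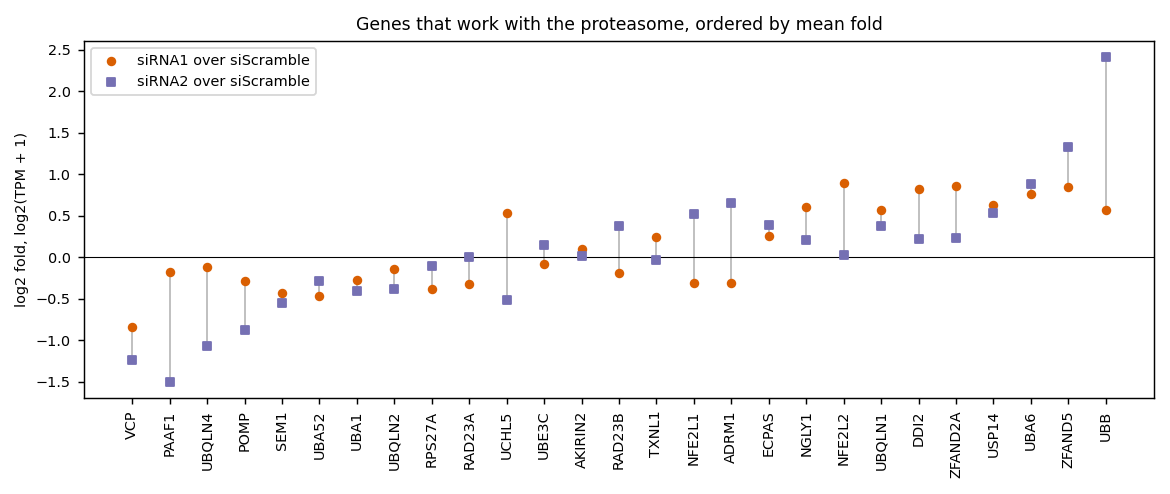
Log2 fold over siScramble of 27 genes that work with the proteasome, on the log2(TPM + 1) scale, ordered by mean fold, siRNA1 as circles and siRNA2 as squares. VCP lies below -0.8 with both siRNAs, and ZFAND5 and UBA6 lie above 0.7 with both.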

How the data were processed

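RNA-seq of NCI-N87 cells gave 3 libraries, made from poly-T selected, fragmented mRNA primed with random hexamers, per the labels' protocols. The authors deposited 1 table of TPM values with 1 column per library. Per the submitters' processing notes the build was GRCh38; the aligner and quantifier are not given in the sources used here, nor is the annotation. The members and gene lists were chosen with earlier results of these data known.

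Values were taken as log2(TPM + 1), for genes averaging at least 1 TPM. limma 3.58.1 (R 4.3.3), run with trended variances and Benjamini-Hochberg adjustment over all genes at 0.05, compared both knockdown libraries with siScramble; the script was tested on simulated data. Folds, medians and counts past 1.5-fold are descriptions. Lengths, GC content and coordinates came from GENCODE 29 by symbol. Depth was estimated from steps of TPM times exon length: 93.3%, 93.5% and 93.2% of low values (siRNA1, siRNA2, siScramble) lay within 0.1 of a whole read; intervals cover counting error only.

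Named members were all those of classes of at most 5, the 3 highest and 3 lowest by mean fold of larger classes, any at least 2-fold off with either siRNA, and the highest and lowest by TPM; PSMD8, PSMD11, PSMD13 and other members named beyond this, and the rows outside the TPM limit, were chosen after their values were seen. From the wider list ADRM1, SEM1, POMP, NFE2L1 and the 4 highest and 4 lowest were named; a gene of that list is not reported here. Alternatives were other pseudocounts, filters and scalings, removal of the GC trend (lowess) and each siRNA alone.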

Additional observations from a re-analysis of the deposited data

How the results depend on the processing

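The count of members called by limma was 0 under every alternative fitted. Over all genes it was 0 as reported, 93 at a minimum of 10 TPM, 1677 with no filter, 92 among protein-coding genes and 9 with mitochondrially encoded genes left out; the cause was not tested. The members' median of -0.29 was -0.17 with median-of-ratios scaling and -0.17 with the GC trend removed, and -0.33 to -0.18 over single siRNAs. The median of all genes moved by 0.12, 0.11 and 0.13 log2 units with median-of-ratios scaling, GC removal and no filter. Relative to that median, the members lay 0.17 lower as reported, and between -0.17 and -0.12 over 8 settings; with no filter, where 52 rows enter and the median of all genes is 0, they lay at -0.26.

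With median-of-ratios scaling the class median was -0.11 for activators and -0.17 for constitutive beta genes. With the GC trend removed it was -0.084 for activators, -0.075 for assembly factors, -0.26 for constitutive beta genes and -0.043 for inducible beta genes. At a minimum of 10 TPM it was -0.045 for inducible beta genes (PSMB8 alone) and 0.31 for rows matching by name only (PSMA3-AS1 alone). Over single siRNAs it ran over -0.26 to -0.077 for activators and -0.30 to 0.056 for alpha genes. Members at least 1.5-fold higher numbered 1 as reported, 0 with a pseudocount of 5, 2 with median-of-ratios scaling, 0 with the GC trend removed, and 0 to 2 over single siRNAs; those lower numbered 4, and 3 to 12 over single siRNAs. The ratio difference for PSMB9 to PSMB6 was -0.46, 0.043 and -0.42 with a pseudocount of 0.1, a pseudocount of 5 and the GC trend removed, and that for PSMB10 to PSMB7 was -0.21, 0.10 and 0.16. Mean folds turned positive with median-of-ratios scaling for PSMA5 (0.091), PSMB5 (0.11), PSMB8 (0.088), PSMD11 (0.077), PSMD14 (0.024), PSMD4 (0.041), PSMD6 (0.023), PSME2 (0.0087) and PSMG1 (0.073), and with the GC trend removed for PSMB5 (0.18), PSMB6 (0.068), PSMB8 (0.20), PSMD11 (0.026), PSMD4 (0.14), PSMD8 (0.14) and PSME2 (0.056).

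No paired analysis was possible because the control is a lone library that shares no replicate number pair with the knockdown group. With either siRNA left out, limma has no residual degree of freedom, so those settings give folds and no test. At these depths PSMB9 and PSMB10 rest on few reads.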

Other observations

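Genes of antigen loading, which receive the peptides that immunoproteasomes cut, were measured from a list of 10, of which 9 reached 1 TPM. Their median log2 fold over siScramble was 0.07 with siRNA1 and -0.17 with siRNA2, against 0.03 and -0.24 over all genes tested. In limma's fit 0 of the 9 were called, and 0 had an unadjusted p under 0.05. IRF1, a transcription factor of the interferon response, had 5.10 TPM with siRNA1 and 10.9 TPM with siRNA2 against 4.79 TPM with siScramble. ERAP1, which trims peptides, had 15.1 and 11.9 TPM against 11.98 TPM. TAPBP, which helps to load peptides on class I molecules, had 83.3 and 48.8 TPM against 125 TPM, and TAP1, a peptide transporter subunit, 24.7 and 30.0 TPM against 35.0 TPM.

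Of the 21 pseudogene rows that match the name, 5 reached a mean of 1 TPM. PSMD10P2, named for PSMD10, was listed at 1.01 TPM with siRNA1 and 17.7 TPM with siRNA2 against 1.37 TPM with siScramble; PSMD10 itself had 72.3 and 35.0 TPM against 84.1 TPM. PSME2P2 had 11.6 and 5.55 TPM against 6.37 TPM. PSMD10P2 shares 1.96% of its 50-base words with PSMD10 and 3.82% with any transcript. Both pseudogenes were chosen after their values were seen.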
